A study of Mus musculus with 12 samples.

Results

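The 9 genes described here encode contractile proteins of heart muscle: the myosin heavy chains Myh6 and Myh7, the ventricular myosin light chains Myl2 and Myl3, the troponin subunits Tnni1, Tnni3, Tnnt2 and Tnnc1, and cardiac actin, Actc1. They were chosen by gene symbol and not by a measured value, all 9 were found among the 20620 genes of the deposited count table, and all 9 passed the filter on low counts that left 19346 genes. The study compared aortic valves of mice at postnatal day 10 by messenger RNA sequencing, and each library was made from 3 pooled valves. Of the 12 libraries, 4 were labelled Notch1+/-;Gata5-/- (written Gata5-/- labelled below), 4 Notch1+/-;Gata5+/- (Gata5+/- labelled) and 4 Wildtype. Both mutant groups carry the Notch1+/- label, so neither differs from wildtype by Gata5 alone. The sources used here name neither strain, sex nor the kind of allele. The pools are separate groups of valves, so each p-value measures the spread between pools.

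In a sarcomere, myosin heavy chains with their light chains form the thick filament and pull on the actin of the thin filament, and the troponin complex makes this pull depend on calcium. Around birth the mouse ventricle replaces the slow myosin heavy chain Myh7 by the fast Myh6, and slow skeletal troponin I, Tnni1, by cardiac troponin I, Tnni3, so the ratios Myh7/Myh6 and Tnni1/Tnni3 are used as measures of heart muscle maturation. Valve leaflets hold little muscle of their own, and the heart muscle adjoins the base of the valve. In bulk libraries like these, fewer cells of a type and less RNA per cell cannot be told apart.

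Library totals ran from 13866604 to 25059653 counts, and the lowest count of any of the 9 genes was 894, for Tnni1 in Gata5+/- labelled replicate 1. Gata5 had 0 counts in each of the 4 Gata5-/- labelled libraries (up to 3 counts are compatible with a count of 0), against 97, 112, 98 and 15 counts in the Gata5+/- labelled and 56, 18, 46 and 19 in the wildtype libraries. Notch1 was not lower where the label names a lost copy: it was at 152 to 213 CPM (counts scaled by TMM to a common library total) in the Gata5-/- labelled, 148 to 194 in the Gata5+/- labelled and 98.6 to 159 in the wildtype libraries, and a count over the whole gene need not show which allele it comes from. Most genes at 0 were seen in Gata5-/- labelled replicate 3, with 6000, then in wildtype replicate 2, with 3208, and the other 10 libraries had 1017 to 2908. Markers of valve interstitial cells and fibroblasts, the tissue named by the labels, summed to 26585 to 35199 CPM over the 12 libraries.

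Because Myh6 and Myh7 are close copies on chromosome 14, their sequences set what their counts can mean. The coding sequences, 5814 and 5805 bases in GENCODE (build GRCm38), were identical at 91.7% of aligned positions. The longest run without a difference was 245 bases, coding bases 4246 to 4490 of Myh6 and 4240 to 4484 of Myh7, and it is shown because a read inside it cannot name its gene.
Shared run: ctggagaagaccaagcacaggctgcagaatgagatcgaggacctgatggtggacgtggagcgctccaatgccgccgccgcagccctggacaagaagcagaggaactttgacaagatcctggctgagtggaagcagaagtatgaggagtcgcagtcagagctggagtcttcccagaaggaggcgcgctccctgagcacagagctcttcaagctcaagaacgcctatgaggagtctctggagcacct

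Of all stretches of 50 coding bases of Myh7, 23.9% also occurred in Myh6, falling to 5.83% of stretches of 150 bases. The sources used here do not say how reads that match both genes were counted, so the level of Myh7 beside the far higher Myh6 is uncertain. Myh7 had 0.882 to 6.86 counts per 100 counts of Myh6, so the share of matching Myh7 stretches does not bound this uncertainty. It holds for the Myh7/Myh6 ratio too, and its size was not tested. Elsewhere the copies separate clearly. The 100-base stretch with the most differences, 35, runs over coding bases 3240 to 3339 of Myh6 and 3234 to 3333 of Myh7, and capitals mark the bases that differ.
Myh7: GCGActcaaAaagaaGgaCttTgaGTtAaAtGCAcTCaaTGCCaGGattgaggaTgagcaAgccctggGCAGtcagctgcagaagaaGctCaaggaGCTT
Myh6: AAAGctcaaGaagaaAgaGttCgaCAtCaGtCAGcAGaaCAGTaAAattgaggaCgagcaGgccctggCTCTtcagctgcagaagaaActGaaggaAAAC

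No 50-base stretch was shared between Tnni1 and Tnni3, whose coding sequences were identical at 66.0% of aligned positions, nor between Actc1 and the skeletal and smooth muscle actins Acta1 and Acta2. The same held for Myl2 against Myl7 and for Myl3 against Myl4, the ventricular and atrial light chains.

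The 250 bases before the start of each gene were taken from RefSeq (build GRCm38.p6, while the labels name GRCm39 for the counts), and all 9 genes had an entry. Those of the heavy chains are shown because Myh7 was the member that varied most between libraries. Both lie on the minus strand, Myh7 (the first of its 2 listed starts) at chr14:54994627-54994876 and Myh6 at chr14:54966608-54966857. Capitals mark CATTCC, the core of the M-CAT element bound by TEAD factors, here in both as its reverse complement GGAATG. The 250 bases before the second listed start of Myh7 hold no CATTCC.
Myh7: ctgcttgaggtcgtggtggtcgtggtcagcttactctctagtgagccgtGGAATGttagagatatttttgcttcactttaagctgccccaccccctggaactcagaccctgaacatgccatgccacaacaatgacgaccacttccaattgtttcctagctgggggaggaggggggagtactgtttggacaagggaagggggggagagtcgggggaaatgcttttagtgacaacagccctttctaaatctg
Myh6: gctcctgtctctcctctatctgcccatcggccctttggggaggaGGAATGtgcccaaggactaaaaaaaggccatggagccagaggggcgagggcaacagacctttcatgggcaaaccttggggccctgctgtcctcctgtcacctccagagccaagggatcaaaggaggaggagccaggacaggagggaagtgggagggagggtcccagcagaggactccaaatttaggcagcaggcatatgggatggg

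The 9 genes have 13 listed starts, 4 of the genes having 2 each. On either strand, CATTCC occurred at 5 of the 13 starts, 1 each of Myh6, Myh7, Myl3, Tnnt2 and Tnnc1, and in 12.6% of the 32851 promoters of the same length in the table. GATAA, a core recognised by GATA factors, occurred at 3 of the 13 starts, 1 each of Myl2, Myl3 and Tnnt2, and in 22.6% of all promoters. Where both occur they do not overlap each other, and a match says only that the letters are there.

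All 9 genes were abundant in the valve pools. Together they took between 0.984% of counts, in wildtype replicate 2, and 2.93%, in Gata5+/- labelled replicate 4. Their share averaged 2.12% ± 0.441 in the Gata5-/- labelled, 2.11% ± 0.657 in the Gata5+/- labelled and 1.85% ± 0.601 in the wildtype libraries (SD, n = 4 each). A heart muscle index, the mean log2 CPM of 12 other heart muscle genes, averaged 9.62 ± 0.22 in the Gata5-/- labelled, 9.62 ± 0.39 in the Gata5+/- labelled and 9.45 ± 0.62 in the wildtype libraries (SD, n = 4 each). It was lowest in wildtype replicate 2, at 8.55, and highest in Gata5+/- labelled replicate 4, at 10.0.

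Per kilobase of transcript, Tnnt2, the subunit that ties troponin to tropomyosin, and Myh6 stood highest, and Tnni1 and Myh7 stood lowest. Tnnt2 was at 2176 ± 370.3 CPM per kilobase in the Gata5-/- labelled, 2104 ± 617 in the Gata5+/- labelled and 1979 ± 773 in the wildtype libraries (SD, n = 4 each). Myh7 was at 52.8 ± 39.0 CPM per kilobase in the Gata5-/- labelled, 31.2 ± 12.5 in the Gata5+/- labelled and 28.1 ± 16.7 in the wildtype libraries. Following the wildtype means, the order was Tnnt2, Myh6, Myl3, Tnnc1, Myl2, Tnni3, Actc1, Tnni1, Myh7. Some neighbours in this order did not separate: Tnnt2 exceeded Myh6 in 6 of 12 libraries, Myl3 exceeded Tnnc1 in 5 and Myl2 exceeded Tnni3 in 9. Myh6 exceeded Myl3, Tnnc1 exceeded Myl2, Tnni3 exceeded Actc1 and Actc1 exceeded Tnni1 in all 12 libraries, and Tnni1 exceeded Myh7 in 11.

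**Figure D1:**
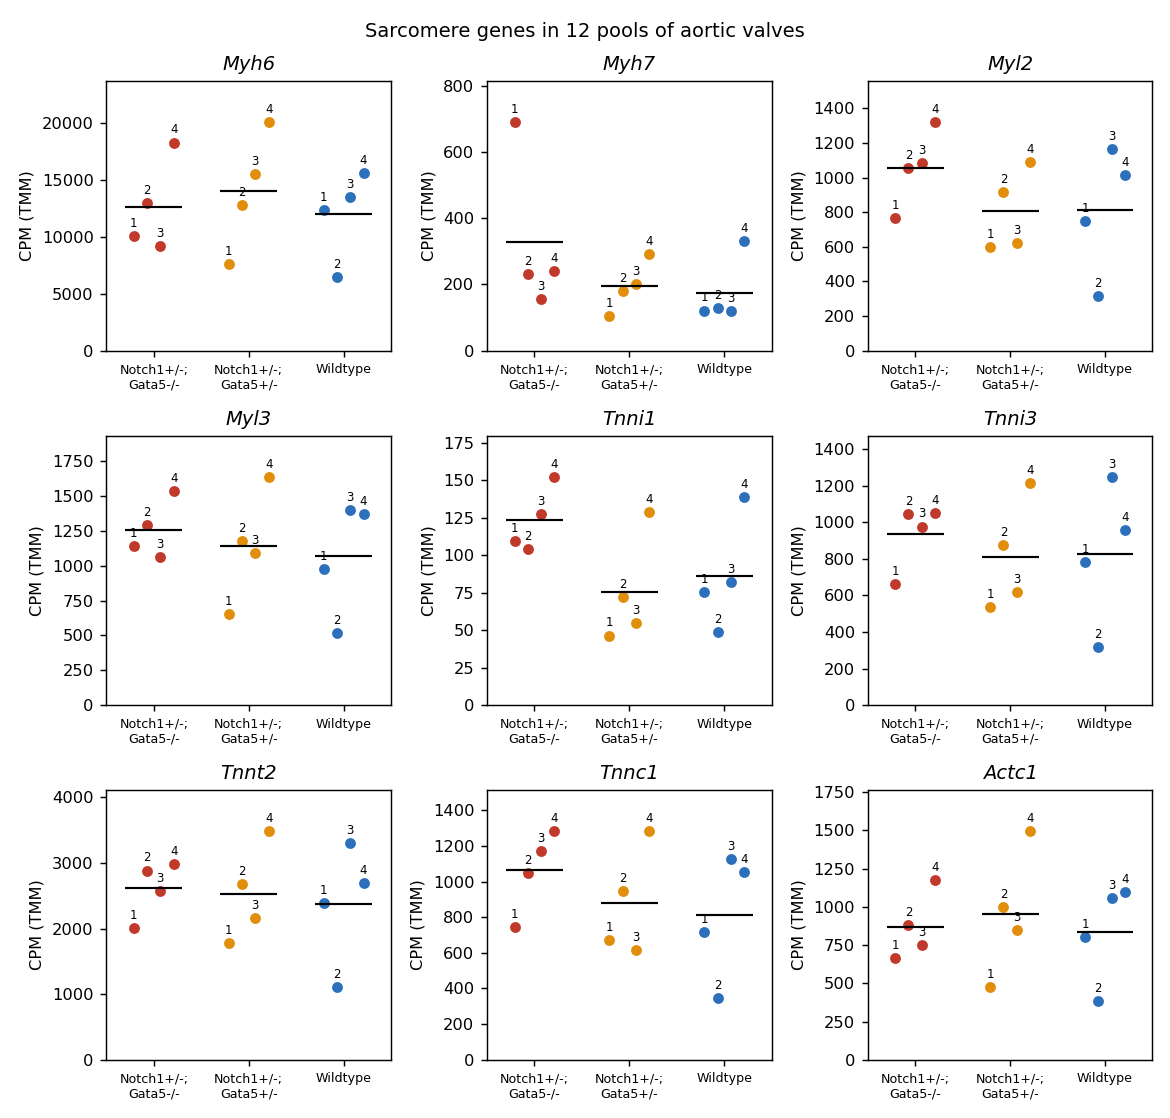
CPM of the 9 genes in each of the 12 libraries, as points numbered by replicate, with a bar at the mean of each group of 4. Axes start at 0 and differ between genes. The groups overlap for every gene, wildtype replicate 2 is the lowest library for 7 of the 9 genes, and Gata5-/- labelled replicate 1 stands alone for Myh7 at 689 CPM.

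None of the 9 genes passed the test in any of the 3 comparisons of groups. With edgeR's quasi-likelihood test the adjusted p was 0.9997 for each of the 9 genes in Gata5-/- labelled against wildtype valves, where 0.0258% of all 19346 genes were called (5 genes). It was 1 for each in the 2 comparisons with the Gata5+/- labelled valves, where 0% of genes were called. At an unadjusted p under 0.05 in the edgeR fit the count of the 9 genes was also 0, while 5.4% of all genes reached it in Gata5-/- labelled against wildtype, 1.25% in Gata5+/- labelled against wildtype and 3.18% in Gata5-/- labelled against Gata5+/- labelled valves. DESeq2 called none of the 9 either, where it called 0.23% of 20458 genes in Gata5-/- labelled against wildtype (47 genes), 0.0293% in Gata5+/- labelled against wildtype (6 genes) and 0.0342% in Gata5-/- labelled against Gata5+/- labelled valves (7 genes). For each of the 9 genes the groups overlapped in every comparison. Groups without overlap were seen for 2.93% of all genes in Gata5-/- labelled against wildtype valves (0.936% higher, 1.99% lower). The share was 2.24% in Gata5+/- labelled against wildtype (1.32% higher, 0.915% lower) and 2.73% in Gata5-/- labelled against Gata5+/- labelled valves (0.703% higher, 2.03% lower).

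Myh7, the slow heavy chain, had 689, 232, 156 and 239.5 CPM in Gata5-/- labelled replicates 1 to 4, against 104, 181, 201 and 293 CPM in the Gata5+/- labelled and 121, 129, 119 and 331 CPM in the wildtype libraries. Gata5-/- labelled replicate 1 lay far above the 11 other libraries, wildtype replicate 4 came next, and the groups otherwise overlapped. The log2 fold change was 0.91 (SE 0.56, unadjusted p = 0.137 in the edgeR fit) in Gata5-/- labelled against wildtype valves and 0.76 (SE 0.56) against Gata5+/- labelled valves. It was 0.15 (SE 0.55) in Gata5+/- labelled against wildtype valves. Without Gata5-/- labelled replicate 1, the first of these differences was 0.27 and the second 0.12. Without wildtype replicate 4 the first was 1.42.

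Myh6, the fast heavy chain that dominates the adult mouse heart, had 10054, 13027, 9218 and 18302 CPM in the Gata5-/- labelled libraries. It had 7646, 12851, 15512 and 20089 CPM in the Gata5+/- labelled and 12398, 6479, 13479 and 15626 CPM in the wildtype libraries. The ranges of the 3 groups lay over one another, and the library with the most Myh7 was among the lower ones for Myh6. The log2 fold change of Myh6 was 0.08 (SE 0.36) in Gata5-/- labelled and 0.23 (SE 0.36) in Gata5+/- labelled against wildtype valves.

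An antisense RNA, Mhrt, is transcribed from the opposite strand of the Myh7 gene. In the GENCODE annotation it shares 484 exon bases with Myh7, 39.9% of its own exon bases and 5.62% of those of Myh7, and none with Myh6. The labels' protocols describe a directional and a non-directional form of the library without saying which was made, and the strand setting of the counting is not given, so reads over those bases cannot be assigned to either gene with certainty. Mhrt stood at 101, 179.9, 96.6 and 91.4 CPM in the Gata5-/- labelled, 87.0, 194, 157 and 115 CPM in the Gata5+/- labelled and 171, 107, 257 and 73.1 CPM in the wildtype libraries. The library highest in Myh7 was not among the 6 highest in Mhrt, and the wildtype library lowest in Mhrt was the one highest in Myh7.

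Myh7 counts were 6.86, 1.78, 1.69 and 1.31 per 100 counts of Myh6 in the Gata5-/- labelled libraries. They were 1.36, 1.41, 1.29 and 1.46 per 100 in the Gata5+/- labelled and 0.980, 1.99, 0.882 and 2.12 per 100 in the wildtype libraries. The Gata5+/- labelled libraries were nearly alike, the wildtype libraries fell into a lower and a higher pair, and the Gata5-/- labelled group had a single high library. On the log2 scale the ratio averaged -5.46 ± 1.08 in the Gata5-/- labelled, -6.18 ± 0.07 in the Gata5+/- labelled and -6.18 ± 0.66 in the wildtype libraries (SD, n = 4 each).

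The difference in log2 Myh7/Myh6 was 0.72 (SE 0.63, exact two-sided permutation p = 0.314) for Gata5-/- labelled minus wildtype. It was 0.73 (SE 0.54, exact permutation p = 0.114) for Gata5-/- labelled minus Gata5+/- labelled, with 3 of 4 Gata5-/- labelled libraries above all 4 of the other group. For Gata5+/- labelled minus wildtype it was -0.01 (SE 0.33, exact permutation p = 0.971). Adjusted over the 15 ratio tests made, these p-values were 0.490, 0.245 and 0.971, and the smallest p that 4 libraries against 4 allow is 0.0286. Without Gata5-/- labelled replicate 1 the first 2 differences were 0.19 and 0.20.

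The second maturation pair is that of the inhibitory troponin subunits. Tnni1, slow skeletal troponin I, had 109.7, 104, 127 and 153 CPM in the Gata5-/- labelled libraries, against 46.5, 72.5, 54.7 and 129 CPM in the Gata5+/- labelled and 75.4, 48.8, 81.9 and 139 CPM in the wildtype libraries. In both other groups 3 libraries lay below all 4 Gata5-/- labelled ones, and replicate 4 lay among them. Its log2 fold change was 0.52 (SE 0.36, unadjusted p = 0.178 in the edgeR fit) in Gata5-/- labelled against wildtype and 0.71 (SE 0.36, unadjusted p = 0.0752) against Gata5+/- labelled valves, the smallest unadjusted p of any of the 9 genes in that fit. In this last comparison the unadjusted p was 0.00928 with DESeq2 (adjusted p = 0.939), 0.0177 with limma-voom, 0.0229 in edgeR with only the 8 libraries compared and 0.00121 in edgeR with the heart muscle index as covariate (adjusted p = 0.999), with log2 fold changes of 0.74, 0.91, 0.72 and 0.78. With a library left out the log2 fold change was 0.55 to 1.09, and the unadjusted p in the edgeR fit ran from 0.00224 to 0.175. The fold change was lowest without Gata5+/- labelled replicate 1 and highest without Gata5+/- labelled replicate 4 (unadjusted p = 0.00224, adjusted p = 1 in the edgeR fit). The value against wildtype was 0.33 without wildtype replicate 2 and 0.84 without wildtype replicate 4. The Gata5+/- labelled against wildtype value was -0.19 (SE 0.36).

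Tnni3, cardiac troponin I, had 660.25, 1047, 977 and 1049 CPM in the Gata5-/- labelled, 538, 877, 619 and 1214 CPM in the Gata5+/- labelled and 780.0, 319, 1249 and 956 CPM in the wildtype libraries. Gata5-/- labelled replicates 2 to 4 lay close together, replicate 1 lay below them, and the groups overlapped. Its log2 fold change was 0.18 (SE 0.40) in Gata5-/- labelled against wildtype valves.

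Tnni1 counts were 16.6, 9.93, 13.1 and 14.5 per 100 counts of Tnni3 in the Gata5-/- labelled libraries. They were 8.64, 8.27, 8.84 and 10.6 per 100 in the Gata5+/- labelled and 9.67, 15.3, 6.56 and 14.6 per 100 in the wildtype libraries. Again the Gata5+/- labelled libraries were close together and the wildtype ones far apart, with wildtype replicates 2 and 4 high and replicates 1 and 3 low in both ratios. The difference in log2 Tnni1/Tnni3 was 0.56 (SE 0.18) for Gata5-/- labelled minus Gata5+/- labelled, where 3 of 4 libraries lay above all of the other group (exact two-sided permutation p = 0.0571, adjusted 0.214). It was 0.29 (SE 0.33, exact permutation p = 0.457) for Gata5-/- labelled minus wildtype and -0.27 (SE 0.30, exact permutation p = 0.343) for Gata5+/- labelled minus wildtype.

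**Figure D2:**
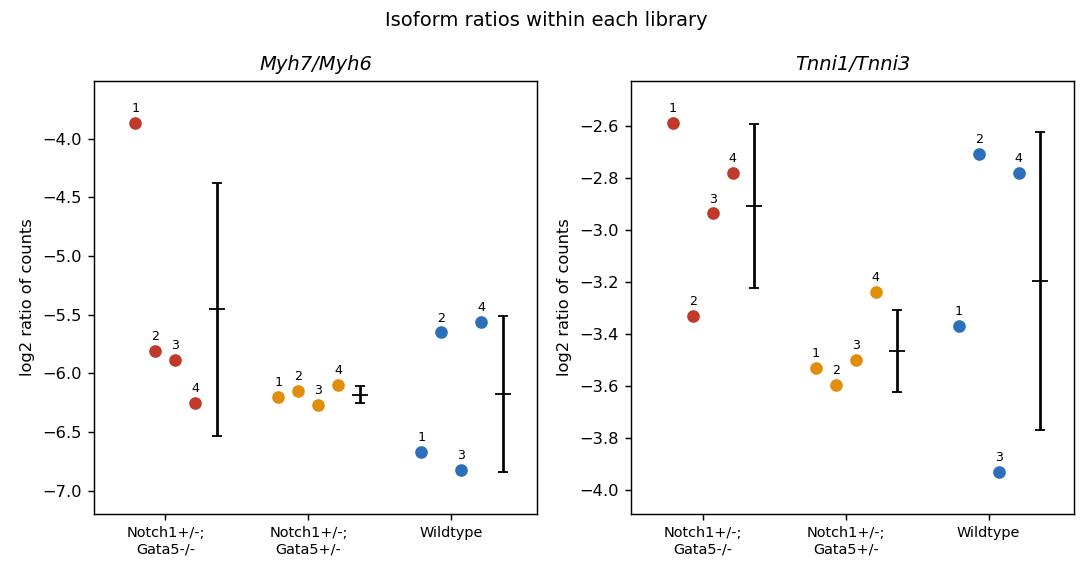
Log2 ratio of counts within each library for Myh7/Myh6 and Tnni1/Tnni3, with points numbered by replicate and, to the right of each group, its mean and SD (n = 4). The Gata5+/- labelled libraries form a tight cluster in both panels (SD 0.07 and 0.16), and the wildtype libraries split into replicates 2 and 4 above replicates 1 and 3.

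Across the 12 libraries both ratios moved together. Log2 Tnni1/Tnni3 and log2 Myh7/Myh6 had Pearson r = 0.709 (permutation p = 0.0038, adjusted 0.0127 over 6 relations) and Spearman rho = 0.769 (permutation p = 0.00486, adjusted 0.0292). Without wildtype replicate 3 and Gata5-/- labelled replicate 1, the libraries farthest from the median of Tnni1/Tnni3, r was 0.578. With each group centred on its own mean r was 0.652. The counts behind both ratios come from the same library, and no batch, date or lane is given by the labels. With the heart muscle index as x, r was -0.286 for Myh7/Myh6 and -0.334 for Tnni1/Tnni3 (permutation p = 0.308 and 0.298, both 0.308 after adjustment).

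**Figure D3:**
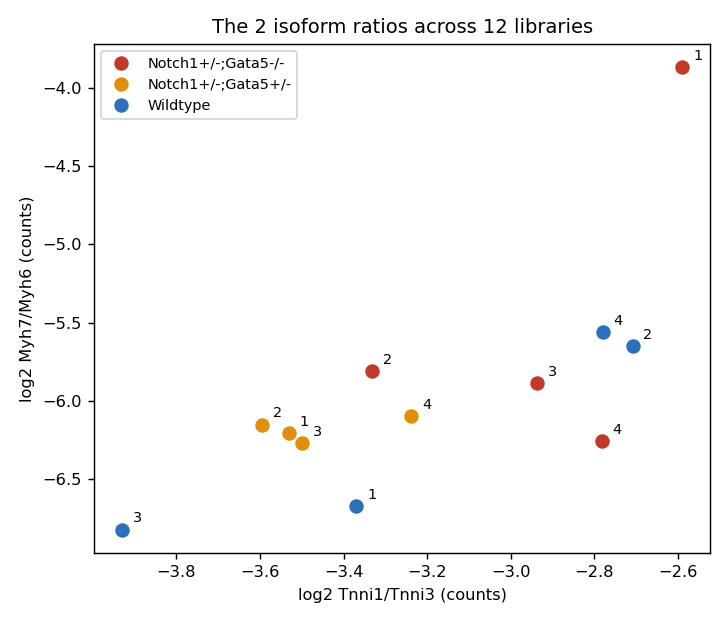
Log2 Myh7/Myh6 (vertical) against log2 Tnni1/Tnni3 (horizontal) in the 12 libraries, coloured by group and numbered by replicate. The points rise from wildtype replicate 3 at the lower left to Gata5-/- labelled replicate 1 at the upper right, with r = 0.709 over 12 libraries and 0.578 without these 2.

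The levels within each pair were compared too. Log2 CPM of Tnni1 and Tnni3 had r = 0.740 (permutation p = 0.00423, adjusted 0.0127), and 0.514 without Gata5+/- labelled replicate 1 and wildtype replicate 2. For Myh6 and Myh7 r was 0.370 (permutation p = 0.237, adjusted 0.308), 0.034 without the same libraries and 0.738 without Gata5-/- labelled replicate 1, a setting chosen after the data were seen.

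The remaining members varied mainly with the heart muscle index. Myl2, the ventricular regulatory light chain, had 767, 1058, 1087 and 1319.6 CPM in the Gata5-/- labelled, 601, 918, 621 and 1089 CPM in the Gata5+/- labelled and 752, 316, 1164 and 1014 CPM in the wildtype libraries. Myl3, the ventricular essential light chain, had 1140.0, 1290.1, 1063 and 1538 CPM in the Gata5-/- labelled, 656, 1179.9, 1091 and 1638 CPM in the Gata5+/- labelled and 977, 519.8, 1399.7 and 1372 CPM in the wildtype libraries. Both were lowest in wildtype replicate 2, and in Gata5-/- labelled against wildtype valves their log2 fold changes were 0.38 (SE 0.37) and 0.24 (SE 0.33). With the heart muscle index as covariate in the edgeR fit Myl2 had an unadjusted p of 0.0212 in that comparison (log2 fold change 0.31, adjusted p = 0.781), and of 0.00408 against Gata5+/- labelled valves (0.40, adjusted p = 0.999).

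Tnnt2 had 2000.3, 2884, 2569 and 2989 CPM in the Gata5-/- labelled, 1772, 2680.1, 2161 and 3484 CPM in the Gata5+/- labelled and 2396, 1103, 3304 and 2694 CPM in the wildtype libraries. Tnnc1, the calcium-binding subunit shared by heart and slow skeletal muscle, had 745, 1046, 1174 and 1282 CPM in the Gata5-/- labelled, 671, 949, 614 and 1283 CPM in the Gata5+/- labelled and 718, 348, 1129 and 1054.5 CPM in the wildtype libraries. Wildtype replicate 2 was again the lowest library for both, and their log2 fold changes in Gata5-/- labelled against wildtype valves were 0.14 (SE 0.32) and 0.39 (SE 0.37). Actc1, the actin of the cardiac thin filament, had 666, 883, 752 and 1178 CPM in the Gata5-/- labelled, 476, 996, 850.25 and 1495 CPM in the Gata5+/- labelled and 805, 386, 1059.9 and 1098 CPM in the wildtype libraries. Its groups had almost the same centre, with a log2 fold change of 0.06 (SE 0.40) in Gata5-/- labelled against wildtype valves.

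In Gata5-/- labelled against wildtype valves all 9 log2 fold changes were positive, with a median of 0.24, beside a median of -0.03 over all genes and 46.1% of all genes positive. Most of the 9 genes rise and fall together across libraries, so this count is not 9 independent observations. Without wildtype replicate 2 only 5 of the 9 were positive and the median was 0.02. With the heart muscle index as a covariate 7 of 9 were positive and the median was 0.13, with Myh6 at -0.09 and Actc1 at -0.10. In Gata5+/- labelled against wildtype valves 6 of 9 were positive (median 0.10, with 50.3% of all genes positive), from Tnni1 at -0.19 to Myh6 at 0.23. In Gata5-/- labelled against Gata5+/- labelled valves 7 of 9 were positive (median 0.20, with 44.5% of all genes positive), all but Actc1 at -0.13 and Myh6 at -0.15. These comparisons share groups, and their values are given side by side.

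Set against the index, Myh7 and Tnni1 kept the widest spread of the 9 genes. The SD of log2 CPM over the 12 libraries was 0.455 for Tnnt2 and fell to 0.114 once the index of the same library was subtracted. For Myl3 these SDs were 0.487 and 0.144, for Actc1 0.550 and 0.189, and for Myh6 0.493 and 0.205. Tnni3, Myl2 and Tnnc1 kept SDs of 0.239, 0.275 and 0.285. Tnni1 had SDs of 0.602 before and 0.461 after the subtraction, and Myh7 hardly moved, with 0.778 before and 0.761 after.

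After this subtraction Myh7 in Gata5-/- labelled replicate 1 lay 1.94 above the gene's mean on the log2 scale, and in wildtype replicate 3 it lay at -1.11. Tnni1 in Gata5-/- labelled replicates 1 to 4 lay at 0.47, 0.08, 0.62 and 0.47, against -0.43, -0.45, -0.77 and 0.09 in the Gata5+/- labelled and -0.24, 0.16, -0.47 and 0.46 in the wildtype libraries. All 4 Gata5-/- labelled values of Tnni1 were positive, the lowest of them fell just under the highest Gata5+/- labelled one, and 2 of the 4 wildtype values were positive and 2 negative. Positive values in all 4 Gata5-/- labelled libraries were not particular to Tnni1. Myl2 lay there at 0.03, 0.18, 0.46 and 0.33, against 0.01, -0.04, -0.51 and -0.08 in the Gata5+/- labelled libraries. Its wildtype values were -0.17, -0.40, 0.11 and 0.08. Myl3 lay at 0.20, 0.07, 0.03 and 0.16 in the Gata5-/- labelled libraries, and the other members had both signs in that group.

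**Figure D4:**
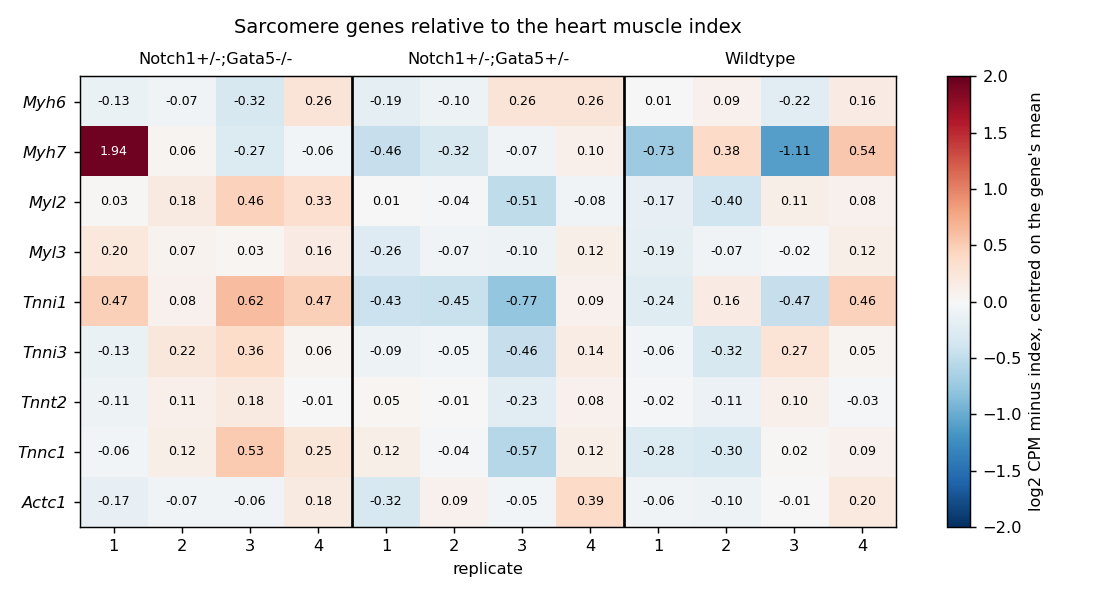
Log2 CPM of each gene minus the heart muscle index of the same library, centred on the gene's mean over 12 libraries, as a heat map with 1 column per library. Myh7 in Gata5-/- labelled replicate 1 (1.94) is the largest departure. Tnni1, Myl2 and Myl3 are positive in all 4 Gata5-/- labelled libraries, and Tnnt2 stays between -0.23 and 0.18 in every library.

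Genes that are not members but varied most like a member were ranked by Pearson r of log2 CPM over the 12 libraries, among 13884 genes with a mean log2 CPM of at least 1. The genes named are the highest of that many correlations over few libraries, so a high r can arise from the search alone. No p was computed for them. Closest to Myh6 were Srl (0.983), Pfkm (0.981), Actn2 (0.975), Mybpc3 (0.975) and Ctnna1 (0.967). Actn2 and Mybpc3 encode the Z-disc actinin and the cardiac myosin-binding protein, and Pfkm the muscle phosphofructokinase. Closest to Myh7 were Nqo2 (0.892), Creb3l2 (0.870), Zfp319 (0.867), 2900026A02Rik (0.864) and Ube2o (0.863). Nqo2 encodes a quinone reductase, Creb3l2 a transcription factor held in the endoplasmic reticulum, and Ube2o a ubiquitin-conjugating enzyme. Without Gata5-/- labelled replicate 1 the r of these 5 with Myh7 ranged from 0.725 to 0.889. Among the members themselves, Tnni3 and Tnnt2 were the most alike (r = 0.987), and Myh7 had r between 0.208, with Tnnt2 and with Tnni3, and 0.602, with Tnni1.

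Light chain and actin pairs gave further ratios. Myl7 and Myl4 are the atrial counterparts of Myl2 and Myl3. Myl7 counts were 0.592, 2.99, 9.02 and 1.29 per 100 counts of Myl2 in the Gata5-/- labelled, 2.66, 2.12, 2.66 and 14.9 in the Gata5+/- labelled and 19.8, 11.7, 17.6 and 3.60 in the wildtype libraries. Wildtype replicates 1 to 3 lay above all 4 Gata5-/- labelled libraries, and Gata5+/- labelled replicate 4 stood apart from its group. Log2 Myl7/Myl2 differed by -2.37 (SE 1.01) for Gata5-/- labelled minus wildtype (exact two-sided permutation p = 0.0571, adjusted 0.214) and by -1.51 (SE 0.86) for Gata5+/- labelled minus wildtype (exact permutation p = 0.0857, adjusted 0.245).

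Myl4 counts were 1.43, 2.76, 13.1 and 2.71 per 100 counts of Myl3 in the Gata5-/- labelled, 3.99, 2.89, 3.62 and 14.04 in the Gata5+/- labelled and 19.1, 15.03, 23.1 and 2.87 in the wildtype libraries. The high libraries were the same as for Myl7/Myl2. Log2 Myl4/Myl3 differed by -1.77 (SE 0.97, exact permutation p = 0.0571, adjusted 0.214) for Gata5-/- labelled minus wildtype.

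The other atrial markers were read beside the ratios, since atrial muscle of the mouse carries Myh6 and little Myh7. Over 9 atrial markers, 8 had a negative log2 fold change in Gata5-/- labelled against wildtype valves, with a median of -1.05, and 0 were called. Of 7 ventricular markers, which include Myl2, Myl3 and Myh7, 4 were positive with a median of 0.23 and 0 were called, and they summed to 2532 to 3484 CPM in the Gata5-/- labelled, 1581 to 3417 in the Gata5+/- labelled and 1162 to 3091 in the wildtype libraries. The exception among the atrial markers was Kcna5, an atrial potassium channel, at 0.69. In Gata5+/- labelled against wildtype valves 7 of the 9 atrial markers were negative, with a median of -0.81 and 0 called. The summed level of the atrial markers was 92.8 to 322 CPM in the Gata5-/- labelled, 97.3 to 553 CPM in the Gata5+/- labelled and 171 to 753 CPM in the wildtype libraries. Bmp10, an atrial signalling factor, had 0 counts in 5 of the 12 libraries, among them Gata5-/- labelled replicates 1 and 3 and wildtype replicates 2 and 4. Log2 Myh7/Myh6 had r = -0.607 with log2 Myl7/Myl2 over the 12 libraries (permutation p = 0.0253, adjusted 0.0505), but rho = -0.308 (permutation p = 0.334, adjusted 0.378), and r was -0.093 without Gata5-/- labelled replicate 1 and wildtype replicate 1. The part of atrial muscle in the 2 maturation ratios was otherwise not tested.

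Skeletal actin, Acta1, is expressed in the fetal and the stressed heart beside Actc1. Acta1 counts were 5.12, 2.76, 5.67 and 2.696 per 100 counts of Actc1 in the Gata5-/- labelled, 2.79, 2.91, 3.20 and 3.08 in the Gata5+/- labelled and 1.95, 2.69, 2.29 and 2.77 in the wildtype libraries. All 4 Gata5+/- labelled libraries lay above all 4 wildtype ones, by a narrow gap, and 2 of the Gata5-/- labelled libraries lay far above both groups. The log2 difference was 0.32 (SE 0.12) for Gata5+/- labelled minus wildtype, with an exact two-sided permutation p = 0.0286, the smallest this design allows, and 0.214 after adjustment. It was 0.67 (SE 0.31, exact permutation p = 0.114, adjusted 0.245) for Gata5-/- labelled minus wildtype and 0.36 (SE 0.29, exact permutation p = 0.429, adjusted 0.490) for Gata5-/- labelled minus Gata5+/- labelled.

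**Figure D5:**
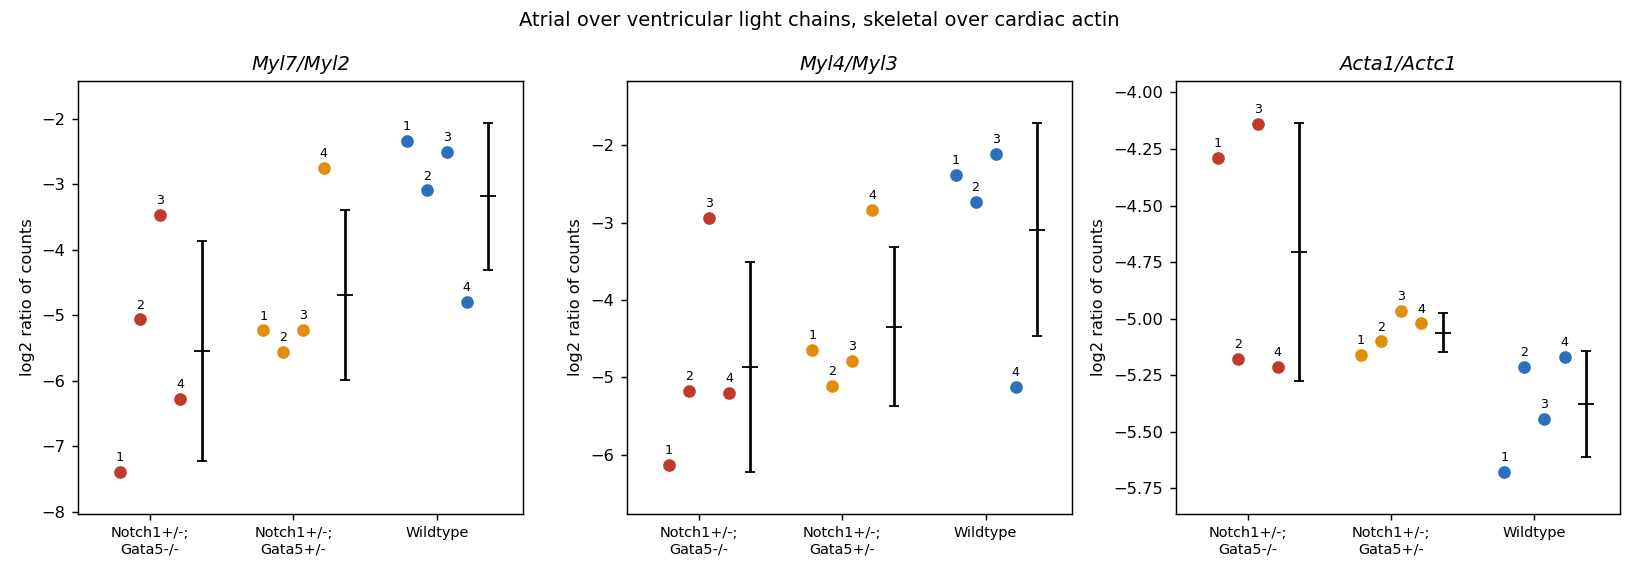
Log2 ratios of counts within each library for Myl7/Myl2, Myl4/Myl3 and Acta1/Actc1, with points numbered by replicate and the mean and SD of each group (n = 4). Wildtype replicates 1 to 3, Gata5+/- labelled replicate 4 and Gata5-/- labelled replicate 3 are high in both atrial over ventricular ratios, and for Acta1/Actc1 the 4 Gata5+/- labelled libraries lie above the 4 wildtype ones.

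The rest of the contractile apparatus gave no calls. In Gata5-/- labelled against wildtype valves 0 of 12 thick filament and M band genes were called (7 positive, median 0.11), and 0 of 18 thin filament and Z disc genes (12 positive, median 0.07). The smallest unadjusted p in these lists belonged to Myom3, an M band protein, at 3.10 ± 2.43 CPM in Gata5-/- labelled and 6.42 ± 2.53 CPM in wildtype valves, to the ring-finger protein Trim54 at 1.38 ± 1.25 and 3.63 ± 1.78 CPM, and to Myom1 at 1207 ± 143 and 1322 ± 127 CPM (SD, n = 4 each). In the thin filament list they belonged to Pdlim5, a Z disc scaffold, at 296 ± 49.6 and 355 ± 38.8 CPM, to filamin C, Flnc, at 211 ± 74.5 and 261 ± 31.9 CPM, and to the Z disc protein Myot at 0.355 ± 0.557 and 1.11 ± 1.28 CPM.

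Of 12 calcium handling genes 0 were called (5 positive, median -0.04). Junctophilin 2, Jph2, which holds the sarcoplasmic reticulum to the cell membrane, was at 237 ± 46.5 CPM in Gata5-/- labelled and 309 ± 63.8 CPM in wildtype valves (SD, n = 4 each), Asph at 318 ± 25.2 and 353 ± 52.1 CPM, and the atrial calcium pump inhibitor Sln at 8.54 ± 5.58 and 30.3 ± 31.3 CPM. Among skeletal muscle isoforms 8 of 13 were tested and 0 called (4 positive, median -0.17). Acta1 was at 33.2 ± 7.52 CPM in Gata5-/- labelled and 20.2 ± 8.92 CPM in wildtype valves, slow skeletal troponin T, Tnnt1, at 5.09 ± 4.92 and 10.4 ± 7.36 CPM, and Myh8, a perinatal skeletal heavy chain, at 0.162 ± 0.324 and 0.809 ± 0.303 CPM, close to the floor of 0.124 to 0.207 CPM that 3 counts set in a library.

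A list of 8 genes linked to fetal and stressed heart muscle, which includes Myh7, had 0 called (5 positive, median 0.14). Nppa, atrial natriuretic peptide, was at 34.3 ± 13.2 CPM in Gata5-/- labelled and 57.7 ± 9.11 CPM in wildtype valves without overlap (SD, n = 4 each, log2 fold change -0.75, adjusted p = 0.872 in the edgeR fit), and Fhl1 at 147 ± 23.2 and 183 ± 13.3 CPM. The gap for Nppa was narrow, with the highest Gata5-/- labelled library at 48.4 CPM and the lowest wildtype one at 48.5 CPM. Of 18 regulators of cardiac isoforms, thyroid hormone receptors and TEAD, MEF2 and GATA factors among them, 0 were called (9 positive, median 0.01). The cardiac transcription factor Tbx20 was at 676 ± 77.0 CPM in Gata5-/- labelled and 566 ± 47.9 CPM in wildtype valves, Gata4 at 133 ± 6.64 and 116 ± 12.5 CPM, and Hand2 at 40.5 ± 5.95 and 33.2 ± 4.49 CPM. In the 2 comparisons with Gata5+/- labelled valves 0 genes of any of these lists were called.

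Markers of other tissues of the valve region were counted beside these genes. Of 7 smooth muscle markers 3 fell in Gata5-/- labelled against wildtype valves by the edgeR test (Mylk, Myh11 and Cnn1, log2 fold changes -0.75, -0.75 and -0.81), and their summed level was 3446 to 4641 CPM in the Gata5-/- labelled, 4700 to 5172 in the Gata5+/- labelled and 5074 to 6920 in the wildtype libraries. These calls were lost with only the 8 libraries compared (smallest adjusted p = 0.113 in the edgeR fit) and without wildtype replicate 2 (0.0736). They were also lost without wildtype replicate 2 and Gata5-/- labelled replicate 3 together (0.107). Without Gata5-/- labelled replicate 1 or 2, 1 of them was kept. With a stricter filter on low counts, with limma-voom and without wildtype replicate 4, 2 were kept (Myh11 and Mylk). DESeq2, and edgeR without Gata5-/- labelled replicate 4, called 5 of the 7, and edgeR with the replicate block called 4. Myh11 is the smooth muscle heavy chain, Mylk the kinase of its light chain and Cnn1 calponin. The part of smooth muscle in the values of the 9 genes was not tested. Conduction tissue markers were negative for 6 of 6 genes in Gata5-/- labelled against wildtype valves (median -1.07), with 0 called. In Gata5+/- labelled against wildtype valves 5 of 6 were negative (median -0.56), again with 0 called. These markers summed to 43.1 to 77.1 CPM in the Gata5-/- labelled, 38.1 to 95.1 in the Gata5+/- labelled and 44.1 to 144 in the wildtype libraries. Endothelial markers were positive for 6 of 6 genes with 0 called, in Gata5-/- labelled against wildtype (median 0.17) and in Gata5+/- labelled against wildtype valves (median 0.18), and summed to 644 to 915 CPM in the Gata5-/- labelled, 669.5 to 859 in the Gata5+/- labelled and 585 to 720.5 in the wildtype libraries. The smallest p among them was that of Nfatc1, a transcription factor of the valve endocardium, at 42.6 ± 9.94 CPM in Gata5-/- labelled and 24.5 ± 4.71 CPM in wildtype valves (SD, n = 4 each, log2 fold change 0.80, unadjusted p = 0.00127 and adjusted p = 0.525 in the edgeR fit). Of 8 interstitial and fibroblast markers 4 were positive, of 4 tested skeletal muscle markers 2, and of 3 blood markers 1, with 0 called in each list.

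In the authors' deposited table, which names no comparison, none of the 9 genes was marked as significant, where 0.236% of its 13959 genes were (33 genes). That marking has the authors' own cutoffs on fold change and adjusted p, so its share cannot be set directly against the calls above. Its log2 fold changes equalled those of the DESeq2 fit of Gata5-/- labelled against wildtype valves within 0.001 for all 13959 genes, and those of the other 2 comparisons for 50 and 65 genes. That table gives Myh7 a log2 fold change of 0.95 (adjusted p = 0.857) and Tnni1 0.55 (adjusted p = 0.801), as the authors' own DESeq2 values.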

How the data were processed

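Messenger RNA of aortic valves at postnatal day 10 was sequenced in 12 libraries, 4 per genotype group, each a pool of 3 valves per the labels' protocols. Per the submitters' processing notes the tools were Trim Galore, STAR 2.7.10b, DESeq2 1.34.0 and build GRCm39. The labels' protocols describe both a directional and a non-directional library without saying which was made. The sources used here name no read length, counting tool, strand setting of the counting, annotation release or treatment of duplicates. The deposited table holds raw counts per gene, whole numbers, for 20620 genes. The authors' deposited comparison table holds a mean normalized signal, log2 fold changes, their standard errors and Wald statistics (each a score), p-values and adjusted p-values. Symbols came from that table for 13959 genes and from GENCODE for 6077, and 584 genes had none.

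Counts were tested with edgeR 4.0.16 in R 4.3.3: filterByExpr (1274 genes removed), TMM scaling, and a robust quasi-likelihood fit of all 12 libraries with a term per group. P-values were adjusted over 19346 genes by Benjamini-Hochberg, called under 0.05. The fit was tested on simulated negative binomial counts, drawn from its own means and dispersions independently for each gene and library. Such counts hold no outlying library and no muscle share that differs between libraries. Log2 CPM used a prior count of 2. Ratios were taken between raw counts within a library, with 0.5 added to each count, and compared by exact two-sided permutation over libraries, adjusted over 15 tests. Relations used 100000 permutations, adjusted over 6. Transcript and coding lengths came from GENCODE (GRCm38). The heart muscle index is the mean log2 CPM of Ttn, Actn2, Mybpc3, Ryr2, Pln, Atp2a2, Ldb3, Tcap, Myom1, Csrp3, Casq2 and Mb, none of them a member.

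Named were all 9 members, their ratio partners, from each related list the 3 genes with the smallest unadjusted p in Gata5-/- labelled against wildtype valves, and the 5 genes most like Myh6 and Myh7. Bmp10 and Mhrt were named outside that rule. The members and lists were chosen with earlier results of these data known. Alternatives were RLE and upper quartile scaling, no filter, a filter asking for a CPM of 1 or more in 4 libraries, limma-voom 3.58.1 with quality weights, DESeq2 1.42.0, the 8 libraries compared alone, the index as covariate, the replicate number as block, each library left out, both libraries that stand apart left out, and 5 added to counts in ratios. Totals of 13866604 to 25059653 counts set a floor (3 counts) of 0.124 to 0.207 CPM. Such floors hold for counting error alone, because PCR copies are not marked by molecular identifiers.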

Additional observations from a re-analysis of the deposited data

Results flagged for a closer look

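Dixon's test at its 95% value was applied to 45 groups of 4 libraries, the 9 genes and the 5 ratios among them, and chance alone gives about 1 in 20. It marked 3 values. Log2 CPM of Myh7 in wildtype replicate 4 was 8.37, with a gap to its nearest neighbour of 0.922 of the group's range. Log2 CPM of Tnni3 in Gata5-/- labelled replicate 1 was 9.37, the lowest of its group, with a gap of 0.845 of the range. Log2 Myl7/Myl2 in Gata5+/- labelled replicate 4 was -2.75, the highest of its group, with a gap of 0.884 of the range. Myh7 in Gata5-/- labelled replicate 1, the highest value over all 12 libraries, did not pass this test within its group.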

How the results depend on the processing

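No alternative called any of the 9 genes: of 486 alternative values, 50 had the opposite sign, and the smallest adjusted p was 0.692, for Myh7 in Gata5-/- labelled against wildtype valves. In what follows the comparisons are named A (Gata5-/- labelled against wildtype), B (Gata5+/- labelled against wildtype) and C (Gata5-/- labelled against Gata5+/- labelled), and values are log2. With limma-voom the opposite signs were, in B, Myl3 -0.092, Tnnt2 -0.10, Tnnc1 -0.059 and Actc1 -0.074, and in C, Myh6 0.063 and Actc1 0.11. With the index as covariate they were, in A, Myh6 -0.092 and Actc1 -0.098, and in B, Myl3 -0.066, Tnnt2 -0.024 and Actc1 -0.034. Without wildtype replicate 2 and Gata5-/- labelled replicate 3 they were, in A, Tnni3 -0.11, Tnnt2 -0.085 and Actc1 -0.11, and in B, Myl3 -0.13, Tnnt2 -0.15, Tnnc1 -0.14 and Actc1 -0.050. Leaving out each library in turn gave, in A, Myh6 -0.16 to 0.23, Tnni3 -0.077 to 0.45, Tnnt2 -0.085 to 0.34 and Actc1 -0.17 to 0.21. In B it gave Myh7 -0.11 to 0.66, Myl2 -0.28 to 0.22, Myl3 -0.13 to 0.29, Tnni1 -0.57 to 0.14, Tnni3 -0.29 to 0.25, Tnnt2 -0.15 to 0.29, Tnnc1 -0.14 to 0.32 and Actc1 -0.11 to 0.41. In C it gave Myh6 -0.38 to 0.074, Myl3 -0.036 to 0.36, Tnnt2 -0.072 to 0.24 and Actc1 -0.34 to 0.17. Each of these ranges spans 0, and the cause of the opposite signs was not tested.

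The Myh7/Myh6 difference in B, near 0 in the full data, was 0.17 without the 2 libraries that stand apart, 0.10 after adjustment for the index, and -0.22 to 0.20 with a library left out. In A it was 0.19 to 0.99 and in C 0.20 to 0.99 with a library left out, lowest without Gata5-/- labelled replicate 1 and highest without Gata5-/- labelled replicate 4. Tnni1/Tnni3 in C was 0.45 to 0.70. Acta1/Actc1 in B kept its sign, at 0.22 to 0.38 with a library left out, where the smallest p the design allows is 0.0571.

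Same-numbered libraries of different groups showed little common deviation (r -0.03 to 0.10 over 12 pairs, none over 0.1). Replicate 4 still had the largest total of each group, at 21450396 in wildtype, 21573022 in Gata5+/- labelled and 25059653 in Gata5-/- labelled valves. It was also the highest library of each group for Myh6, Tnni1 and Actc1. Whether same-numbered libraries share a factor for these genes was not tested. With the replicate block Myl2 in B was 0.039 in place of -0.01, Myh7 in A was 0.94, Tnni1 in C was 0.79 (unadjusted p = 0.000596, adjusted 0.999) and in A 0.59 (unadjusted p = 0.00554, adjusted 0.767), and 7 genes of the whole table were called in A.

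Over all genes the count called in A was 5 by edgeR, 47 by DESeq2, 0 with only the 8 libraries compared, 2 without wildtype replicate 2, 3 without Gata5-/- labelled replicate 1 and 21 without Gata5-/- labelled replicate 4.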
